A study of Mus musculus with 167 samples.

Results

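Huntington's disease is caused by expansion of a CAG repeat in the first exon of the gene for huntingtin, and the Q175 line is a knock-in mouse with a long repeat in that exon. The livers of 8 Q175 mice aged 2 months were compared with the livers of 16 control mice of the same age, 8 Q20 and 8 wild-type (WT), by small RNA sequencing. These 24 livers, chosen by genotype and age as labelled, are part of a series of 167. Each Q175 mouse was heterozygous, with 1 wild-type *Htt* allele and 1 allele holding human *HTT* exon 1 with a nominal CAG length of 175, on a background labelled C57BL/6, from fathers mated to C57BL/6J females. Q20 mice carried a knock-in allele that was engineered separately, with a nominal length of 20, and the WT mice were littermates of the Q20 line with no engineered allele. Each genotype was represented by 4 females and 4 males. The Q175 line arose from the Q140 line by spontaneous expansion, and Q175 mice shared cages with Q175 mice while Q20 and WT mice shared cages with Q20 mice. Allele, line, cage and repeat length therefore cannot be told apart. Library names of Q175 carry codes that no other genotype of this age has, their meaning is not stated, and that difference cannot be told apart from genotype either. *Htt* is not a microRNA gene, so the allele itself was not read out here.

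MicroRNAs are cut from hairpin precursors, first by Drosha in the nucleus and then by Dicer in the cytoplasm, and the mature strand of some 22 bases guides Argonaute to messenger RNAs. Pairing rests mainly on the seed, bases 2 to 8 of the mature strand, so microRNAs with the same seed share most targets. The liver is dominated by hepatocytes, whose best known microRNA is miR-122, and it also holds stellate cells, endothelium, bile duct epithelium, leukocytes and blood, each with microRNAs of its own.

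The table gives estimated counts for 1626 precursors, of which 1238 had a count in at least 1 of the 24 livers and 316 passed the filter of at least 10 counts in at least 7 livers of this age. Levels below are counts per 1000000 of the library's total (CPM), which compare the same precursor between livers and not the amounts of different precursors. Total counts, in units of 1000000, were 2.31 to 3.66 in Q175 (median 2.59), 3.11 to 4.35 in Q20 (median 3.56) and 1.69 to 4.62 in WT (median 3.19). Q175 libraries were thus shallower, with 7 of 8 under the control median. Q175 F3, the third female, had the lowest normalization factor of the 24 at 0.879, and WT M4 had the fewest counts. The livers carried the microRNA of hepatocytes, with Mir122 at 23200 to 29500 CPM in Q175 and 21600 to 30500 CPM in controls. In the same fit 94 of 316 precursors (29.7%) differed between males and females. The 3 sequencing lanes each held Q175 livers, with 2 in lane 3, 4 in lane 4 and 2 in lane 5, while WT had no liver in lane 5. Lane moved 6 of 316 precursors (1.9%), *Mir9-2*, *Mir5112*, *Mir124a-1*, *Mir205*, *Mir129-2* and *Mir128-2*, and none of these was among those called for Q175. Q20 and WT did not differ at the threshold for any of the 316 (0%) by edgeR, with 14 at an unadjusted p under 0.05 and 0 by DESeq2.

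The mature sequences of the microRNAs on which the comparison turns are given first, with the closest relatives by seed. They were taken from RefSeq (GRCm38.p6), run 5′ to 3′, and have the seed in capitals. Of the 33 precursors called, 15 matched an entry. The first group holds the mature strands of precursors that were lower in Q175. miR-10b-5p is shown beside miR-10a-5p, which has the same seed and differs at 1 base, and miR-200a-3p beside miR-141-3p, which shares its seed and differs at 2 bases.
mmu-miR-10b-5p: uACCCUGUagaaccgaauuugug
mmu-miR-10a-5p: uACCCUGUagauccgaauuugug
mmu-miR-199a-5p: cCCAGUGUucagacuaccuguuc
mmu-miR-199a-3p: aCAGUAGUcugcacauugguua
mmu-miR-199b-3p: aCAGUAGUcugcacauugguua
mmu-miR-195a-5p: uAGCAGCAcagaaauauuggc
mmu-miR-16-5p: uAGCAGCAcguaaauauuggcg
mmu-miR-200a-3p: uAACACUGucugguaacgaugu
mmu-miR-141-3p: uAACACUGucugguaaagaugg
mmu-miR-301a-3p: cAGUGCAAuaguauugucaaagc
mmu-miR-130a-3p: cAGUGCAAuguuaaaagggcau
mmu-miR-224-5p: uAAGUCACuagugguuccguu

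The second group holds mature strands of precursors that were higher in Q175. miR-1961 is shown beside let-7c because their seeds are the same.
mmu-miR-451a: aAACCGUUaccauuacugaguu
mmu-miR-185-3p: aGGGGCUGgcuuuccucuggu
mmu-miR-5100: uCGAAUCCcagcggugccucu
mmu-miR-1961: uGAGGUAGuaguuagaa
mmu-let-7c-5p: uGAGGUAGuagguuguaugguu
mmu-miR-1983: cUCACCUGgagcauguuuucu
mmu-miR-3963: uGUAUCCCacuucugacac

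Q175 livers differed from controls in 33 of 316 precursors (10.4%) by edgeR's quasi-likelihood test at a Benjamini-Hochberg adjusted p under 0.05, with 21 higher (6.65%) and 12 lower (3.8%). All 12 lower precursors carried a microRNA name, as did 247 of all 316 tested (78.2%). Among the 12 were *Mir10b*, *Mir145a*, the 3 *Mir199* genes and *Mir200a*. The higher group was mostly hairpins with a predicted gene name or only an identifier, joined by the red cell microRNA *Mir451a* and by *Mir185*, *Mir383* and *Mir320*. Changes were small, from 0.25 to 1.38 on the log2 scale in either direction, with a median of 0.62 for the higher and -0.41 for the lower. The ranges of Q175 and control livers overlapped for every one of the 316 precursors, so that none (0%) was separated, and at most 6 of 8 Q175 livers lay outside the control range. Scaling to the total count alone gave 25 calls with 52% higher, against 63.6% higher as reported, and factors from the named microRNAs alone gave 42 calls with 78.6% higher. Each of the 33 kept its sign under both, in the same livers.

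**Figure D1:**
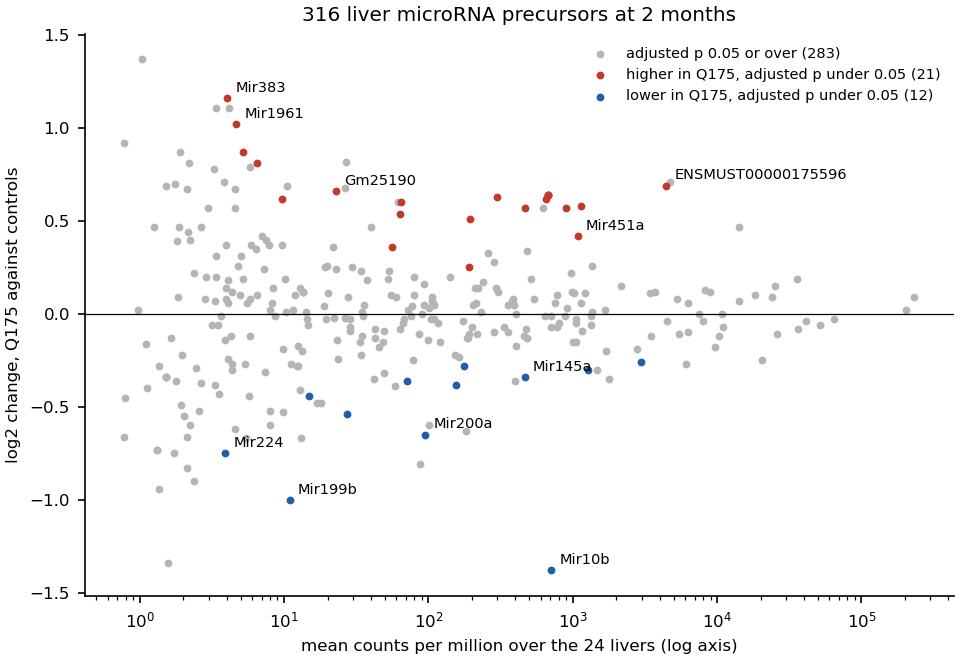
Log2 change of Q175 against controls (vertical axis) over the mean level in the 24 livers in CPM (horizontal, log axis), 1 point for each of the 316 precursors tested. The 21 higher and 12 lower calls are coloured, the named ones lie between -1.38 and 1.16, and the precursors of highest level sit near 0.

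The choice of control group and the depth of the libraries both moved the count. Against Q20 alone there were 20 calls, 18 of them among the 33, and against WT alone there were 0 by edgeR, with 55 precursors at an unadjusted p under 0.05 and 29 of the 33 among these. All 33 kept their sign in each, which is largely built in because they were chosen on the same livers. With the log2 of the total count added to the fit there were 11 calls, of which 6 were among the 33. These 6 were *Mir10b*, *Mir145a*, *Mir199a-1*, *Mir200a*, *Gm25190* and *Gm23766*. The median change of the 21 higher precursors went from 0.62 to 0.34 in that fit, while that of the 12 lower ones stayed at -0.41. In the plot of the 33 under 4 fits, the higher precursors other than *Mir383* lie closer to 0 when depth is added.

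**Figure D2:**
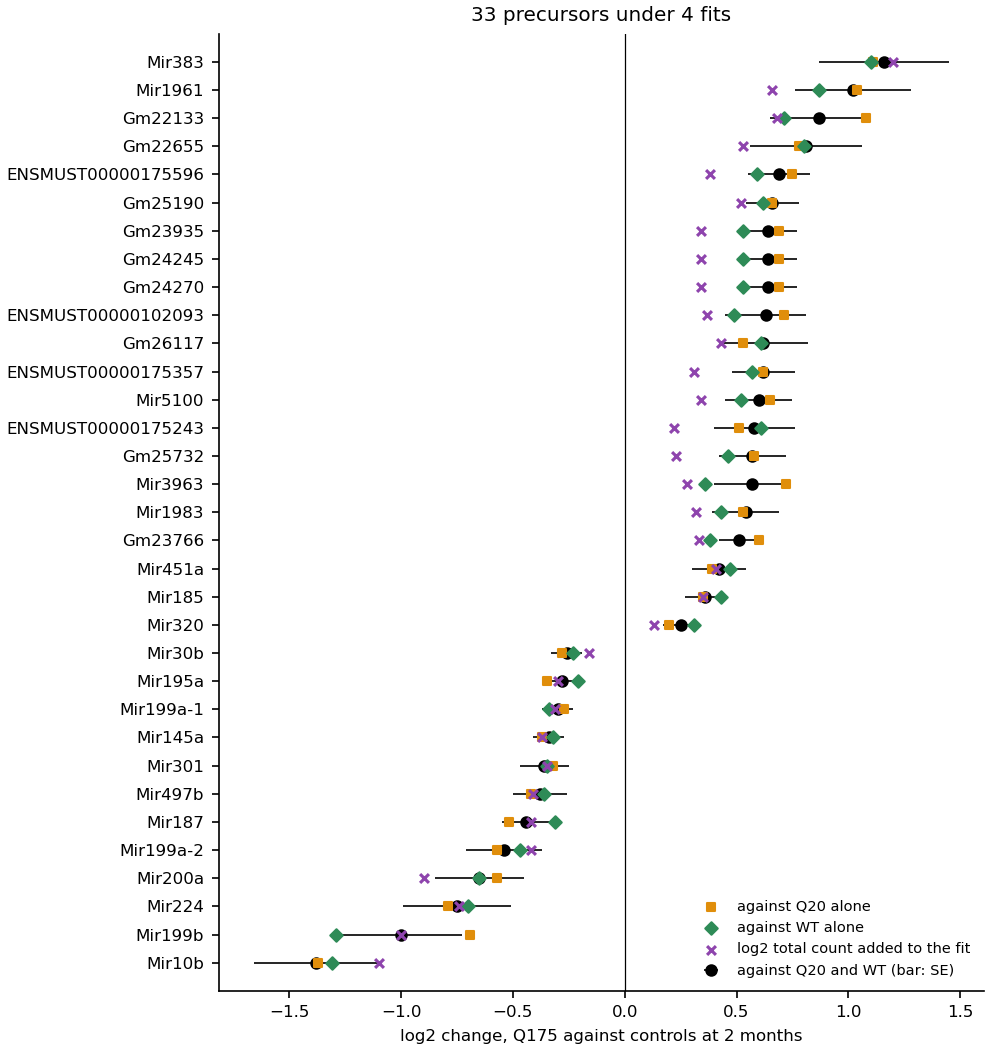
Log2 change of the 33 called precursors (rows) against both control groups with its SE, against Q20 alone, against WT alone, and with the log2 total count in the fit. Every point keeps its side of 0, and the crosses of the higher precursors lie closer to 0 than the circles for all except *Mir383*.

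*Mir10b* had the largest change. It lies between *Hoxd* genes (74726070 to 74726137 on chromosome 2, where both *Hoxd3* and *Hoxd4* have an intron) and is known for developmental and mesenchymal expression. It was measured at 177 CPM in the lowest Q175 liver, 260 CPM at the median and 518 CPM in the highest, and at 425, 771 and 2210 CPM in controls. All 8 Q175 livers lay below the control median and 6 lay below the lowest control, so that only the upper end of Q175 met the lower end of the controls. The fitted change was -1.38 ± 0.28 (SE) with an adjusted p of 0.00283. The values without any 1 liver ran from -1.55 to -1.25, and the call was kept in all 24 such fits. It was -1.94 in females and -1.06 in males, and -1.24, -1.29 and -2.04 within lanes 3, 4 and 5.

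*Mir10a*, which lies in the *Hoxb* cluster and gives a mature strand that differs from that of *Mir10b* at 1 base, lay on the other side of 0. Its level was 30900 to 49100 CPM in Q175 and 30800 to 39600 CPM in controls. The change was 0.19 ± 0.08 (SE), with an unadjusted p of 0.0298 and an adjusted p of 0.145. *Mir10b* shares no run of 25 bases with any other annotated transcript, and its counts were not among those split into fractions in every liver. At 23 bases the mature strand is shorter than such a run. The search therefore cannot show whether mature reads of *Mir10a* and *Mir10b* were kept apart.

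The *Mir199* genes and *Mir145a* are microRNAs of mesenchymal cells, in liver chiefly stellate cells, pericytes and vascular smooth muscle. *Mir145a* (chromosome 18, 61647825 to 61647894, outside other genes) had 272, 410 and 423 CPM as the lowest, median and highest Q175 value and 404, 483 and 711 CPM in controls. Every Q175 liver was below the control median and 3 were below the lowest control. Its change was -0.34 ± 0.07 (SE), adjusted p 0.00365, and it ranged from -0.36 to -0.30 when livers were left out in turn.

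*Mir199a-1* (chromosome 9, 21496495 to 21496564, opposite to an intron of *Dnm2*) was at 719, 1120 and 1260 CPM in Q175 and 1090, 1350 and 1640 CPM in controls. It too was under the control median in 8 of 8 Q175 livers, with 2 below the lowest control, and its change was -0.30 ± 0.07 (SE) with an adjusted p of 0.00713. *Mir199b* (chromosome 2, 32318460 to 32318569, opposite to an intron of *Dnm1*) was scarce, at 1.84, 6.34 and 11 CPM in Q175 and 5.50, 12.9 and 20.5 CPM in controls. Its change was -1.0 ± 0.27 (SE), adjusted p 0.0186. The third copy, *Mir199a-2* (chromosome 1, in *Dnm3os*), changed by -0.54 ± 0.17 (SE), adjusted p 0.0453, and kept its call in 7 of the 24 fits that leave out a liver. The mature 3p strand printed above is the same for all 3 copies, the hairpins share runs of 25 bases, and their counts were fractional in all 24 livers. How reads were divided among the copies is therefore uncertain, and the 3 are not separate measurements.

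The other members of the stellate and smooth muscle list were below 0 too, without passing the threshold. *Mir143*, made from the same transcript as *Mir145a* and the most abundant of the list, had 14500 to 21100 CPM in Q175 and 15800 to 40300 CPM in controls, a change of -0.25 ± 0.12 (SE) with adjusted p 0.199. The 40300 CPM was that of WT F3, which also had the highest control values of *Mir10b* (2210 CPM) and *Mir145a* (711 CPM). Without WT F3 and Q20 F1 together, all 12 lower precursors stayed called. *Mir214*, which neighbours *Mir199a-2*, changed by -0.18 ± 0.09 (SE), adjusted p 0.212. Of the 6 members tested, 4 fell at the threshold and none rose, where 3.8% of all 316 fell, and 3 of the 4 were the *Mir199* copies that are not separate measurements. The median change was -0.32 beside 0.01 over all 316. It was -0.33 against Q20 alone, -0.33 against WT alone and -0.34 with depth in the fit. In bulk liver, fewer cells of a type and less of a microRNA per cell cannot be told apart.

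**Figure D3:**
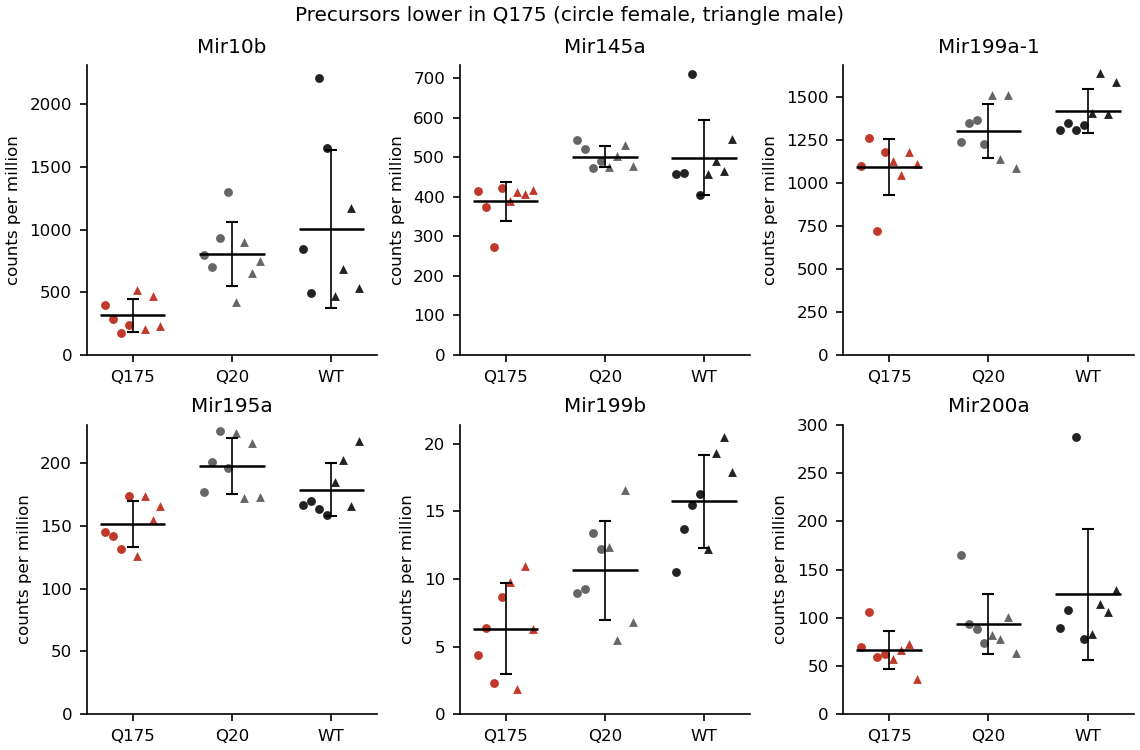
CPM of 6 precursors lower in Q175, from 0 on the vertical axis, in each Q175, Q20 and WT liver (circle female, triangle male, line mean, bar SD, n = 8 a group). The Q175 mean is lowest in each panel, with *Mir10b* the most separated, and the groups overlap in all 6.

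The *Mir200* family, made in epithelium and in liver mainly in bile duct cells, had all 5 precursors below 0, of which 1 passed the threshold. *Mir200a* (chromosome 4, 156054896 to 156054985, in an intron of *Ttll10*) was at 36.9, 64.7 and 106 CPM in Q175 and 63.5, 91.2 and 288 CPM in controls. All but 1 Q175 liver lay under the control median and 4 were under the lowest control. The change was -0.65 ± 0.20 (SE) with an adjusted p of 0.0401, and the call was kept in 14 of 24 fits that leave out a liver. Its cluster partners *Mir200b* (-0.63 ± 0.21 SE, adjusted p 0.053) and *Mir429* (-0.60 ± 0.21 SE, adjusted p 0.0659) lie 696 and 909 bases from it and missed the threshold. *Mir141*, on chromosome 6 with the seed of *Mir200a*, changed by -0.81 ± 0.33 (SE), adjusted p 0.129. Of the 5 members, 1 fell (3.8% of all 316 fell) and none rose at the threshold, and the median was -0.63 beside 0.01 over all tested. Their summed level was 209 to 478 CPM in Q175 and 272 to 1750 CPM in controls, and the highest values of *Mir200a* in controls were those of WT F3 (288 CPM) and Q20 F1 (165 CPM). The same 2 livers had the most of the muscle microRNA *Mir133a-1*, at 65.9 and 55.1 CPM, where the other controls had at most 18.6 CPM, and its part in the *Mir200* values was not tested. Without WT F3, *Mir200a* changed by -0.55 with an adjusted p of 0.0158, and without both livers by -0.49 with an adjusted p of 0.0244.

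*Mir195a* and *Mir497b* are annotated 226 bases apart on chromosome 11, on opposite strands. *Mir195a* belongs with miR-15 and miR-16 to a family that acts on the cell cycle. It had 126, 150 and 174 CPM in Q175 and 159, 181 and 226 CPM in controls, with 8 of 8 Q175 livers below the control median and 5 below the lowest control. The change was -0.28 ± 0.07 (SE), adjusted p 0.0164, kept in 24 of 24 fits that leave out a liver. *Mir497b* changed by -0.38 ± 0.12 (SE), adjusted p 0.0401. Relatives of *Mir195a* by seed did not pass the threshold, with *Mir16-1*, the most abundant, at -0.04 ± 0.05 (SE, adjusted p 0.591) and *Mir15b* at 0.16 ± 0.06 (SE, adjusted p 0.0684). *Mir322* was at -0.11 ± 0.05 (SE, adjusted p 0.138). Across the 8 members of the miR-15 and miR-16 list tested, 2 fell (3.8% of all 316 fell), none rose, and the median was -0.10. These 2 were *Mir195a* and *Mir497b*, and since the mature strand of *Mir497b* in RefSeq has another seed, *Mir195a* was the only member with the family seed that fell.

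The remaining lower precursors were *Mir187*, *Mir30b*, *Mir301* and *Mir224*. *Mir187* (chromosome 18) was at 7.80, 11.8 and 14.7 CPM in Q175 and 10.0, 16.3 and 21.4 CPM in controls, a change of -0.44 ± 0.11 (SE) with adjusted p 0.0162. *Mir30b* (chromosome 15, 68337415 to 68337510) changed by -0.26 ± 0.07 (SE), adjusted p 0.0219, with 1530, 2750 and 3230 CPM in Q175 and 2770, 3160 and 3530 CPM in controls. At 3698 bases from it on the same strand, *Mir30d* was at 0.00 ± 0.04 (SE, adjusted p 0.976). *Mir301*, in an intron of *Ska2*, changed by -0.36 ± 0.11 (SE), adjusted p 0.0401, and *Mir130a*, which has its seed, by -0.20 ± 0.07 (SE), adjusted p 0.0659. *Mir224*, in an intron of *Gabre* on the X chromosome, had only 2 counts in its lowest Q175 library and changed by -0.75 ± 0.24 (SE), adjusted p 0.0489.

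Among the higher precursors, the smallest adjusted p of the comparison belonged to *Gm25190* and *Gm23766*, both of them predicted hairpins. *Gm25190* (chromosome 10, 116531646 to 116531740, in an intron of *Cnot2*) was at 21.1, 28.4 and 44.0 CPM in Q175 and 11.4, 20.1 and 25.9 CPM in controls. All 8 Q175 livers were above the control median and 5 above the highest control, with a change of 0.66 ± 0.12 (SE), adjusted p 0.0023. *Gm23766* (chromosome 10, 45095629 to 45095708, opposite to an intron of *Prep*) was at 155, 242 and 310 CPM in Q175 and 114, 162 and 254 CPM in controls, a change of 0.51 ± 0.09 (SE) with the same adjusted p. Both stayed called in all 24 fits that leave out a liver. Their counts were fractional in all 24 livers and their sequences are not unique. *Gm25190* shares a run of 25 bases, on either strand, with transcripts of 2854 other genes, and *Gm23766* with those of 31. Reads from such repeats cannot be assigned to 1 locus, so neither value can be tied to the hairpin it is named for. *Gm22655* (chromosome 7, in an intron of *Anapc15*), which shares such runs with 1085 genes and with *Gm25190*, changed by 0.81 ± 0.25 (SE), adjusted p 0.0401.

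*Gm23935*, *Gm24245* and *Gm24270* on chromosomes 16, 4 and 9 have 1 sequence of 57 bases between them and equal counts in all 24 livers, and so were 1 measurement entered 3 times. The 33 calls thus rest on 31 distinct profiles. Its level was 542, 815 and 1210 CPM in Q175 and 316, 561 and 956 CPM in controls, with 6 of 8 Q175 livers over the control median. The change was 0.64 ± 0.13 (SE), adjusted p 0.00283. *Gm25732* lies 39 bases from *Gm24245* on the same strand of chromosome 4 and changed by 0.57 ± 0.15 (SE), adjusted p 0.0183.

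The identifiers ENSMUST00000175596 and ENSMUST00000175357 have no entry in the annotation used. ENSMUST00000175596 was the most abundant of the called precursors, with 3310, 5950 and 7720 CPM in Q175 and 1820, 3680 and 6610 CPM in controls. Its change was 0.69 ± 0.14 (SE), adjusted p 0.00347, and 7 of 8 Q175 livers were above the control median. ENSMUST00000175357 was at 576, 844 and 1250 CPM in Q175 and 316, 584 and 931 CPM in controls, a change of 0.62 ± 0.14 (SE) with adjusted p 0.00566. Both overlapped the controls widely and had only 2 Q175 livers above the highest control. ENSMUST00000102093 (0.63 ± 0.18 SE, adjusted p 0.0334) and ENSMUST00000175243 (0.58 ± 0.18 SE, adjusted p 0.0416) completed the identifiers called.

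Precursors with a predicted name or only an identifier had medians above 0 as classes. Of 37 with a predicted name, 9 rose and none fell, with a median of 0.31, and of 32 identifiers 4 rose and none fell, with a median of 0.24. Of the 247 *Mir*-named precursors, 8 rose and 12 fell, with a median of -0.02. The medians of the first 2 classes were 0.14 and 0.16 once depth was in the fit, and 0.31 and 0.21 against WT alone. Identifiers held 1.86 to 3.24% of all counts in Q175 (median 2.81) and 1.37 to 3.03% in controls (median 1.97). Of the 21 higher precursors, 13 were also called higher in males than in females, beside 53 of all 316 (16.8%). The measurement shared by *Gm23935*, *Gm24245* and *Gm24270* is counted 3 times in the 9 that rose, in the 13 and in the 53. The part of depth and of sex in the shift was not tested beyond these values.

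*Gm22133* lies in an exon of *Ftl1*, the gene of the ferritin light chain, on the same strand (chromosome 7, 45458089 to 45458197), so its reads cannot be told apart from those of the messenger RNA. It was at 3.82, 7.71 and 13.1 CPM in Q175 and 0.920, 4.24 and 6.50 CPM in controls, and changed by 0.87 ± 0.22 (SE), adjusted p 0.0149. *Gm26117* lies in an exon of *Adgrb1*, and at 0.62 ± 0.20 (SE), adjusted p 0.0489, it kept its call in 3 of 24 fits that leave out a liver.

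**Figure D4:**
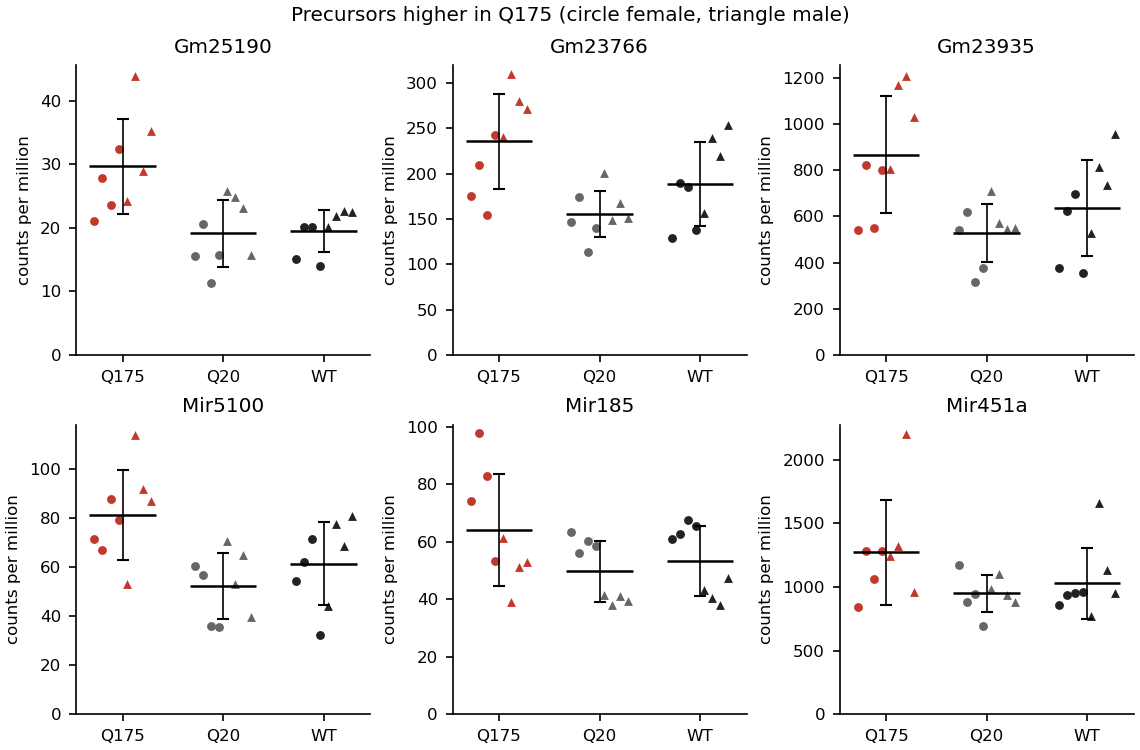
CPM of 6 precursors higher in Q175, from 0 on the vertical axis, in each Q175, Q20 and WT liver (circle female, triangle male, line mean, bar SD, n = 8 a group). *Gm25190* is the most separated, and the sex difference of *Mir185* is seen in all 3 groups.

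Named microRNAs that rose were led by *Mir5100* and *Mir185*. *Mir5100* (chromosome 11, 60728663 to 60728726, in an intron of *Mief2*) was at 53.2, 83.1 and 114 CPM in Q175 and 32.2, 58.6 and 80.6 CPM in controls, with 4 Q175 livers above the highest control. Its change was 0.60 ± 0.15 (SE), adjusted p 0.0137. *Mir185* (chromosome 16, 18327401 to 18327465, in an intron of *Tango2*), reported to regulate cholesterol uptake and synthesis, was at 39.0, 57.3 and 97.7 CPM in Q175 and 37.8, 51.6 and 67.5 CPM in controls. The 3 Q175 livers above the highest control were all female, and the sex difference was -0.50 ± 0.09 (SE), male against female, in the same fit. Its change for genotype was 0.36 ± 0.09 (SE), adjusted p 0.0143, 0.40 in females and 0.34 in males. *Mir5100*, *Mir1983* and *Mir3963* were all shifted towards 0 with depth in the fit, to 0.34, 0.32 and 0.28, while *Mir185* was at 0.35.

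*Mir383*, in an intron of *Sgcz* on chromosome 8, and *Mir1961*, opposite to an intron of *Shroom3* on chromosome 5, had the largest rises at low levels. *Mir383* was at 1.93, 6.47 and 9.83 CPM in Q175 and 0.293, 2.96 and 7.12 CPM in controls, which is as few as 1 count in a control library. Its change was 1.16 ± 0.29 (SE), adjusted p 0.0152, with 2.02 in males and 0.39 in females (interaction adjusted p 0.334). *Mir1961* was at 3.47, 6.28 and 12.1 CPM in Q175 and 1.07, 3.43 and 7.88 CPM in controls, a change of 1.02 ± 0.26 (SE) with adjusted p 0.0157. Although *Mir1961* has the let-7 seed, the 10 let-7 precursors tested were called in neither direction and had a median of 0.10. All 10 were above 0, 3 with an unadjusted p under 0.05. These were *Mirlet7c-1* at 0.22 ± 0.08 (SE, adjusted p 0.0659), *Mirlet7a-2* at 0.19 ± 0.08 (SE, adjusted p 0.145) and *Mirlet7c-2* at 0.11 ± 0.05 (SE, adjusted p 0.146). *Mirlet7f-2*, the most abundant, was at 0.10 ± 0.06 (SE, adjusted p 0.313).

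*Mir1983* (chromosome 13) changed by 0.54 ± 0.15 (SE), adjusted p 0.0219, and *Mir3963* (chromosome 3) by 0.57 ± 0.17 (SE), adjusted p 0.0401. *Mir1983* was above the highest control in 6 of 8 Q175 livers, more than for any other of the higher precursors. *Mir320*, a capped hairpin made without Drosha, changed by 0.25 ± 0.08 (SE), adjusted p 0.0401, the smallest rise. Of the 3 precursors tested from the list of those made without Drosha, capped or not, it alone was called. *Mir484* was at 0.14 ± 0.07 (SE, adjusted p 0.172), and the median of the 3 was 0.14.

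*Mir451a* is made in red cell precursors, by Argonaute cleavage in place of Dicer. It was at 845, 1260 and 2200 CPM in Q175 and 695, 948 and 1660 CPM in controls. Of the Q175 livers, 7 lay above the control median and only M3 above the highest control. Its change was 0.42 ± 0.12 (SE), adjusted p 0.0231, kept in 21 of 24 fits that leave out a liver. *Mir144*, 100 bases away on chromosome 11 in the same transcript, changed by 0.33 ± 0.13 (SE), adjusted p 0.0944. *Mir486*, the third of the erythroid list and the most abundant, was at 1700 to 9740 CPM in Q175 and 1610 to 5670 CPM in controls, a change of 0.71 ± 0.24 (SE) with adjusted p 0.053. *Mir486* was at 0.46 ± 0.26 (SE) against Q20 alone and 1.03 ± 0.34 (SE) against WT alone, so its size depended on the control group. Of the 3 members, 1 rose (6.65% of all 316 rose) and none fell. The median was 0.42 (0.39 against Q20 alone, 0.47 against WT alone, 0.40 with depth in the fit). The summed level of the 3 was 3210 to 12500 CPM in Q175, median 8040, and 3010 to 7090 CPM in controls, median 5240. These microRNAs are abundant in red cells, and the part of blood content in these values was not tested.

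Most other lists held few calls or none. The 13 abundant liver microRNAs had 0 calls and a median of -0.04, and their summed share was 662000 to 696000 CPM in Q175 and 655000 to 706000 CPM in controls. *Mir192*, the highest, was at 0.09 ± 0.06 (SE, adjusted p 0.36), *Mir122* at 0.15 ± 0.07 (SE, adjusted p 0.145) and *Mir101a* at -0.27 ± 0.09 (SE, adjusted p 0.0546). *Mir126a*, of endothelium, was at -0.11 ± 0.05 (SE, adjusted p 0.18). None of these 4 passed the threshold.

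Leukocyte microRNAs had 0 of 7 called and a median of 0.09. *Mir146* (0.57 ± 0.20 SE, adjusted p 0.0659) and *Mir146b* (0.60 ± 0.20 SE, adjusted p 0.053), induced in inflammation, missed the threshold. Both were highest in Q175 F3, at 2100 and 227 CPM, where the other Q175 livers had at most 827 and 101 CPM. *Mir146b* was at 1.0 in females and 0.22 in males. *Mir142b*, the most abundant, was at 0.15 ± 0.10 (SE, adjusted p 0.331). The 3 members of the *Mir183* cluster were all below 0 with none called, with *Mir182* at -0.30 ± 0.14 (SE, adjusted p 0.157), *Mir183* at -0.25 ± 0.12 (SE, adjusted p 0.171) and *Mir96* at -0.62 ± 0.26 (SE, adjusted p 0.138). Their median was -0.30, but -0.09 against WT alone.

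In the imprinted *Dlk1*-*Dio3* cluster, which is expressed from the maternal copy, all 12 precursors tested lay above 0 and none was called, with a median of 0.37. The median was 0.17 against Q20 alone, 0.47 against WT alone and 0.53 with depth in the fit. *Mir541* was at 0.47 ± 0.16 (SE, adjusted p 0.0659), *Mir376c* at 0.71 ± 0.33 (SE, adjusted p 0.172) and *Mir127*, the most abundant, at 0.14 ± 0.15 (SE, adjusted p 0.543). In the X-linked cluster, listed for its members that are higher in male liver, all 5 tested lay below 0 and none was called, with a median of -0.67. *Mir743b* (-0.67 ± 0.24 SE, adjusted p 0.0719), *Mir201* (-0.52 ± 0.22 SE, adjusted p 0.144), *Mir547* (-0.66 ± 0.27 SE, adjusted p 0.12) and *Mir881* (-1.34 ± 0.54 SE, adjusted p 0.12) had an unadjusted p under 0.05. All were scarce, with medians of 0.525 to 2.94 CPM in Q175.

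The proliferation clusters around *Mir17* had 0 of 12 called and a median of 0.06, with *Mir92-2* at 0.17 ± 0.06 (SE, adjusted p 0.0719) and *Mir92-1*, the most abundant, at 0.07 ± 0.07 (SE, adjusted p 0.502). Of 16 regulators of lipid and glucose handling, *Mir185* rose (6.65% of all 316 rose) and none fell, with a median of -0.06 and with *Mir29c* at -0.15 ± 0.07 (SE, adjusted p 0.145). *Mir34a* (0.36 ± 0.17 SE, adjusted p 0.168) and *Mir34c* (-0.52 ± 0.25 SE, adjusted p 0.18), both activated by p53, pointed in opposite directions. Neuronal microRNAs had 0 of 9 called and a median of -0.01, with *Mir128-1* at 0.19 ± 0.08 (SE, adjusted p 0.144) and *Mir132* at -0.24 ± 0.11 (SE, adjusted p 0.146). Of the muscle list only *Mir133a-1* was tested, at -0.27 ± 0.64 (SE, adjusted p 0.82), and its list summed to 2.14 to 15.6 CPM in Q175 and 1.93 to 72.0 CPM in controls.

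Whether the difference had the same size in both sexes was tested as an interaction. It was called for none of the 316 precursors (0%) by edgeR, with 34 at an unadjusted p under 0.05 and 1 call by DESeq2. The smallest adjusted p, 0.074, was that of *Mir125a*. Fitted alone, females gave 0 calls by edgeR with 50 at an unadjusted p under 0.05, and males gave 10, of which 6 were among the 33. All 33 had 1 sign in both sexes, and the medians were 0.59 in females and 0.58 in males for the higher and -0.46 and -0.41 for the lower. Within lanes 3, 4 and 5 alone there were 0, 1 and 4 calls, with 18, 54 and 42 at an unadjusted p under 0.05. All 33 kept their sign in each lane, with medians of 0.59, 0.45 and 0.89 for the higher and -0.25, -0.51 and -0.54 for the lower. The 33 were chosen on these same livers, so a shared sign within a sex or a lane is largely built in and is not replication.

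Q140 is the line from which Q175 arose and the nearest in repeat length. Between the 8 Q175 and 8 Q140 livers of 2 months, 0 of 316 precursors (0%) were called by edgeR, with 15 at an unadjusted p under 0.05, 1 call by DESeq2 and a smallest adjusted p of 0.939. Q140 F2 and M1 were alone in lane 1 in this fit, so the lane term takes up their level. No Q140 liver was in lane 4, which held 4 of the Q175 livers, so the lines were unbalanced by lane. For *Mir10b* the gap was -1.16 ± 0.45 (SE), with an unadjusted p of 0.0151. Its Q140 livers ran from 201 to 2560 CPM with a median of 832 CPM, where Q175 had 260 CPM. *Mir145a* had a Q140 median of 443 CPM and *Mir199a-1* of 1130 CPM, beside 410 and 1120 CPM in Q175. Of the 21 higher precursors, 7 lay above and 14 below 0 for Q175 minus Q140, with a median of -0.07. Of the 12 lower ones, 1 lay above and 11 below, with a median of -0.2. Medians in Q175, Q140 and controls were 815, 821 and 561 CPM for *Gm23935* and 1260, 1360 and 948 CPM for *Mir451a*. For *Gm25190* they were 28.4, 23.1 and 20.1 CPM. A p that misses the threshold does not show that the lines are alike, and the Q140 range could be wide, as for *Gm23935* with 303 to 1510 CPM.

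The same comparison in other mice of 6 and 10 months gave the values of these precursors in livers that took no part in choosing them. At 6 months, where Q20 alone served as control, 41 of 313 were called (13.1%), among them 7 of the 33. The smallest adjusted p belonged to *Gm24111*, *Mir351*, *Mir328*, *Mir26a-1* and *Mir708*. Of the 21 that were higher at 2 months, 7 were called at 6 months and all 7 were lower, where 27 of all 313 were called lower. They were *Gm23935* and its copies, which are not separate measurements, at -0.63 (adjusted p 0.0175), and *Gm25732* at -0.62 (adjusted p 0.00723). The others were ENSMUST00000175357 at -0.56 (adjusted p 0.0191), ENSMUST00000175596 at -0.49 (adjusted p 0.044) and *Gm26117* at -1.08 (adjusted p 0.0269). None of the 12 lower at 2 months was called at 6 months, and 8 were above 0. At 6 months the Q175 and Q20 libraries shared no lane, and only the index type was in the fit.

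At 10 months, against Q20 and WT, 0 of 314 (0%) were called by edgeR, with 21 at an unadjusted p under 0.05 and 3 calls by DESeq2. Q20 at this age had 5 livers labelled female and 3 labelled male. Its liver F1, labelled female, carries the library code of the Q20 and WT males of that age. Sex entered the fits as labelled. *Mir10b* was at 0.99 (unadjusted p 0.101), *Mir145a* at 0.62 (unadjusted p 0.00639) and *Mir199b* at 0.53 (unadjusted p 0.0848), each on the other side of 0 from its value at 2 months. Of the 32 of the 33 tested at 10 months, 13 of 20 higher and 9 of 12 lower lay on the other side of 0 from their value at 2 months. The plot of change by age shows the same for both directions.

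**Figure D5:**
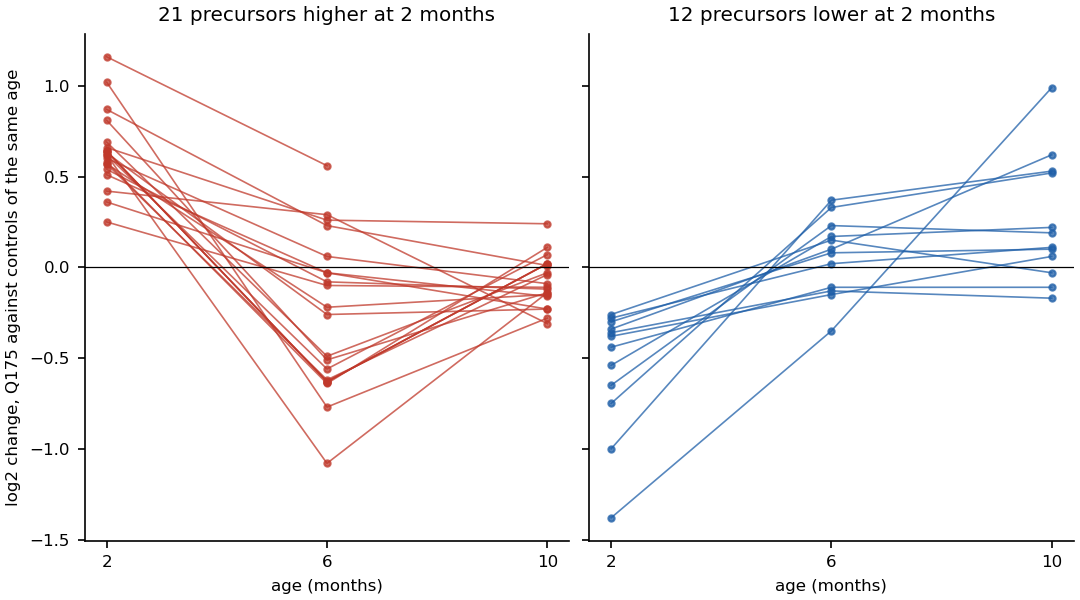
Log2 change of Q175 against controls at 2, 6 and 10 months for the 21 precursors higher and the 12 lower at 2 months (controls Q20 and WT at 2 and 10 months, Q20 alone at 6 months). Each line joins 1 precursor across different mice, and most lines cross 0 between 2 and 6 months.

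The difference between ages was itself tested. The effect at 6 months minus that at 2 months was called for 35 of 296 precursors (11.8%), 10 above and 25 below 0, and 14 of the 33 were among them. That fit held Q175 and Q20 livers alone at both ages, so its 2 month side is against Q20 without WT. The effect at 10 months minus that at 2 months was called for 6 of 300 (2%), 3 of them among the 33. These were *Mir145a* (0.98 ± 0.21 SE, adjusted p 0.0119), *Mir199b* (1.55 ± 0.41 SE, adjusted p 0.0317) and *Mir10b* (2.40 ± 0.65 SE, adjusted p 0.0317). The others were *Mir125a* (0.68), *Mir484* (-0.46) and *Mir96* (1.48). Since the 33 were called on the 2 month livers that enter these tests, a return towards 0 is built into their count, and the values at 6 and 10 months are the independent part.

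The edge of the threshold ran through related precursors. Just inside were *Mir224* and *Gm26117* at an adjusted p of 0.0489. Just outside were *Gm27626* (1.11, adjusted p 0.052), followed by ENSMUST00000175087, ENSMUST00000175336, *Mir200b*, *Mir146b* and *Mir486* at 0.053 and *Mir101a* at 0.0546. When each of the 24 livers was left out in turn, 16 of the 33 were called every time. The count of calls was 18 without Q175 F4 and 19 without Q175 M3, the 2 livers that moved it by over 1.5 times, and 30 without Q175 F3 and WT M4 together.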

How the data were processed

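Small RNA of 24 livers was sequenced by the authors as 36-base strand-specific single reads. Per the labels, the reads were processed with CASAVA 1.8.2. The study's methods name STAR alignment to mm10 and HTSeq counting. The authors deposited estimated counts per precursor transcript, and 49.7% of the values above 0 in the deposited counts were whole, so reads had been divided between copies by a step not given in the sources used here. Replicates were not pooled, and no molecular identifiers were used. A deposited FPKM table of the same libraries was not used.

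The design had assumed whole counts, so estimated counts were rounded first. The test was edgeR's quasi-likelihood F test (version 4.0.16, R 4.3.3), scaled by TMM, with sex and lane as covariates and Benjamini-Hochberg adjustment. An adjusted p under 0.05 is a call. Testing required 10 or more counts in 7 or more of the 56 livers of 2 months. The SE of a log2 change was obtained as its absolute value over the square root of F. Each liver is 1 mouse. Transcripts were matched to GENCODE M21 (1228 of 1626), and coordinates are 1-based mm10. Neighbours were sought within 10000 bases and shared sequence as runs of 25 bases. The fits were tested on simulated data. DESeq2 1.42.0 and limma 3.58.1 gave alternatives. Every called precursor is named, the 12 of smallest adjusted p are described in full, and list members are named at an unadjusted p under 0.05 or as the most abundant. For other comparisons up to 5 calls are named. The comparison and the lists were chosen with earlier results of these data known.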

Additional observations from a re-analysis of the deposited data

Results flagged for a closer look

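Single livers stood apart for some of the precursors called. In 93 groups of 8 livers, 8 values lay farther from the rest of their group than Dixon's 95% limit for 8 values, and chance flags about 1 group in 20. Q175 F3 was the lowest of Q175 for *Mir145a* (272 CPM, the next at 375) and for *Mir199a-1* (719 CPM, the next at 1050). Both kept their call without it. Q175 M3 was the highest of Q175 for *Mir451a* (2200 CPM, the next at 1320), and WT M2 was the highest of WT for it (1660 CPM). WT F3 was the highest of WT for *Mir145a* (711 CPM), *Mir200a* (288 CPM) and *Mir320* (251 CPM), and Q20 F1 was the highest of Q20 for *Mir200a* (165 CPM).

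The Q175 effect differed between ages. At 6 minus 2 months, 35 precursors were called by edgeR. Besides *Mir351* (-0.60), which was not called at 2 months, the log2 differences were -1.35 for *Gm23935*, *Gm24245* and *Gm24270*, -1.25 for *Gm25732*, -1.23 for ENSMUST00000175357 and -1.28 for ENSMUST00000175596. They were -0.98 for *Mir3963*, -1.86 for *Mir1961*, -1.65 for *Gm26117*, -1.0 for ENSMUST00000102093 and -1.19 for ENSMUST00000175243. Positive differences were found for *Mir145a* (0.43), *Mir30b* (0.39) and *Mir200a* (0.77). At 10 minus 2 months, 6 were called, with *Mir145a* at 0.98, *Mir125a* at 0.68, *Mir484* at -0.46, *Mir96* at 1.48, *Mir199b* at 1.55 and *Mir10b* at 2.40. Lane and index type differ between the ages, and their part in these differences was not tested. The 6 minus 2 month fit held no WT livers at either age.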

How the results depend on the processing

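For Q175 against controls (33 calls), the count was 51 under DESeq2, 20 against Q20 alone, 0 against WT alone, 21 with all 7 genotypes in the fit, 20 without the sex term, 11 with log2 total count, 0 in females, 10 in males, and 0, 1 and 4 in lanes 3, 4 and 5. It stayed within 1.5 times at 33 with RLE factors, 25 with total counts, 36 without a filter, 35 without lane, 26 with the replicate block and 40 with voom. With the filter set on counts before rounding, which drops 1 precursor, it was 25. This choice, the factors from named microRNAs and the omission of Q175 F3 with WT M4 or of WT F3 with Q20 F1 (33 calls) were added after the data were seen. Leaving out 1 liver gave 18 to 39. No called precursor changed sign in any of these fits, which reuse livers that took part in choosing it. Of their values, 616 stayed called and 176 did not when a liver was left out, and 439 and 314 under the others. Correlations of same-numbered livers ran from -0.358 to 0.329, with 8 of 24 over 0.1, and means over other-numbered livers from -0.216 to 0.0456. These values do not settle whether the block pairs animals. The sex interaction (0 calls) had 1 under DESeq2, 5 without a filter and 0 to 1 without a liver. Q175 against Q140 (0) had 1 under DESeq2, 1 without lane and 0 without any Q175 liver. The 10 minus 2 month effect (6) had 14 with RLE factors, 23 with total counts, 22 under DESeq2, 37 without a filter, 21 without lane, 1 with the block and 2 to 15 without a Q175 liver of 2 months. The 6 minus 2 month effect (35) had 68 without a filter, 21 with the block and 32 to 41 without a liver. Q20 against WT (0) had 8 without a filter, and lane (6) had 14 under DESeq2 and 13 without a filter. At 10 months (0) there were 3 under DESeq2 and 12 without a filter, and at 6 months (41) there were 15 with the block. The causes were not tested. Changes at a few CPM rest on as few as 1 to 5 counts a library.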
